A study of Mus musculus with 4 samples.

Results

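The genes of the cytosolic and mitochondrial ribosomal proteins were examined in an ATAC-seq comparison of Carm1 mutant and wild-type mouse hearts. Members were the protein-coding genes whose symbol began with Rpl, Rps, Mrpl or Mrps and a digit, together with Rplp0, Rplp1, Rplp2 and Rpsa, and without the Rps6k kinase genes. The rule found 169 of 21900 protein-coding genes. Of these, 91 were cytosolic (56 large-subunit and 35 small-subunit symbols) and 78 mitochondrial (49 large and 29 small). The samples were 2 heart libraries labelled Carm1 mutant and 2 labelled wild type, all of postnatal day 14, although the series' design text speaks of neonatal hearts. Carm1 is an arginine methyltransferase of histones and other proteins. The labels gave neither the altered part of Carm1 nor a promoter or cell type of any Cre, nor the strain or sex, nor whether a library held 1 animal or a pool. In ATAC-seq a transposase cuts open chromatin and tags it for sequencing, so the count of a peak measures how accessible that region was.

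The cytosolic ribosome translates nuclear-encoded messages, and its proteins are made in near-equal amounts from genes that nearly every cell uses. Many of their transcripts begin with a terminal oligopyrimidine (TOP) tract, a run of pyrimidines at the first base through which growth signals control their translation. The mitochondrial ribosome has its own set of proteins, encoded in the nucleus and imported, and it makes the core subunits of the respiratory chain, which the working heart needs in large amounts. Ets-family factors, NRF1 and YY1 are known regulators of genes for mitochondrial function, and several also act at ribosomal protein genes.

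A peak was assigned to a member when it lay within 1 kb of either end of the gene. This gave 221 peaks at 159 genes, of which 124 peaks lay at 82 cytosolic genes and 97 at 77 mitochondrial genes. No peak was shared between the classes, and all 221 passed the filter on low counts. Most genes had a single peak, namely 53 cytosolic and 59 mitochondrial genes. The libraries held between 15945420 and 19091969 counts in 87948 peaks. All 6 listed cardiomyocyte marker genes (among them Myh6 and Tnnt2) had a gene-end peak, while none of the 3 leukocyte markers (Ptprc, Csf1r and Adgre1) had one, nor did the hepatocyte gene Alb. Apoa1, the other hepatocyte gene listed, had 1 peak, with 13.3 and 15.6 CPM in the mutant and 12.3 and 13.6 CPM in the wild type. How animals were assigned to libraries is not labelled, so the p-values measure only the spread between these libraries.

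The promoters shown here belong to the most accessible genes of each class, to genes whose peaks had the smallest p-values, to Rpl3l, to a pair of mitochondrial genes that share a promoter, and to Rpl13a and Rps21 as further examples of a TOP tract. They come from RefSeq (build GRCm38.p6, the assembly also called mm10) and run 5′ to 3′ on the strand of the gene, with 100 bases before the annotated start and 25 from it on. Positions count from 1 at the start, and those before it are negative. Capitals mark matches to an Ets motif (CCGGAAG), an Sp1 motif (GGGCGG) or a TOP tract, with motifs read on both strands.
Rpl38, chr11:114668480-114668604, plus strand: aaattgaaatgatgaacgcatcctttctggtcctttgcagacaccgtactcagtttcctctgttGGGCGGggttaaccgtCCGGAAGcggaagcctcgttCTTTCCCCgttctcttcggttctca
Rpl13a, chr7:45128721-45128845, minus strand: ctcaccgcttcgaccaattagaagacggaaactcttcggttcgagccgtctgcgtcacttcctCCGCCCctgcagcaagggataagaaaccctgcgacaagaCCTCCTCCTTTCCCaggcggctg
Rps21, chr2:180257279-180257403, plus strand: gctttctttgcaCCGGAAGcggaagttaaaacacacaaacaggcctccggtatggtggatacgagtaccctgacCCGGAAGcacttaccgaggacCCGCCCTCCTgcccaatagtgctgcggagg
Rps19, chr7:24884492-24884616, plus strand: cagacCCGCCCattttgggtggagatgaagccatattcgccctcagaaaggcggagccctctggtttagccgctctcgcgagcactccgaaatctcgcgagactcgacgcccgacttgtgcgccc
Rps15, chr10:80292331-80292455, plus strand: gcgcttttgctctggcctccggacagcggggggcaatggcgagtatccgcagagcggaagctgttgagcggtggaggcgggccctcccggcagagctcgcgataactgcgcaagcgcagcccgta
Rpl3l outer start, chr17:24727726-24727850, plus strand: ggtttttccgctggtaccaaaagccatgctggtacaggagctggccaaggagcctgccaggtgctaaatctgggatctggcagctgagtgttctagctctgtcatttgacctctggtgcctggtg
Rpl3l inner start, chr17:24732585-24732709, plus strand: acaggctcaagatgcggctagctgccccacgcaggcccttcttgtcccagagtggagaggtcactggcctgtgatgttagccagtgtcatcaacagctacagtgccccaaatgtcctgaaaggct
Mrps18b, chr17:35916416-35916540, minus strand: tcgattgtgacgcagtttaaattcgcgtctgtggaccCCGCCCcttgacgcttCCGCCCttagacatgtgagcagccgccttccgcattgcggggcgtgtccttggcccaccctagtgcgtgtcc
Mrpl34, chr8:71464826-71464950, plus strand: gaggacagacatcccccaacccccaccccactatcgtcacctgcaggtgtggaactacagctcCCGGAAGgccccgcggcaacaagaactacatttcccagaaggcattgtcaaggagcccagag
Mrpl46, chr7:78783065-78783189, minus strand: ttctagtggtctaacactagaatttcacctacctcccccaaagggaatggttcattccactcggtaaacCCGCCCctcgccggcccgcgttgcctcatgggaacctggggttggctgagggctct
Mrps11, chr7:78783031-78783155, plus strand: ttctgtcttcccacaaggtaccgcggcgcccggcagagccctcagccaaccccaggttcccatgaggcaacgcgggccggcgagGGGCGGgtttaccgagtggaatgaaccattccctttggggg

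A TOP tract was counted as a stretch of at least 5 pyrimidines read from a C within 5 bases of the annotated start. That C could itself follow other pyrimidines, so some counted tracts lie within longer runs. In Rpl38, whose protein belongs to the large subunit, the counted stretch CTTTCCCC began at the annotated start and was directly preceded by TT. An Ets motif lay at position -20. Rps21, a small-subunit gene, had its tract at position -2, overlapping an Sp1 motif, and Ets motifs at positions -88 and -26. The windows shown for Rps19 (the first of its 3 starts) and Rps15 held neither feature, and those of Mrpl46 and Mrps11 are the opposite strands of 1 shared region, with their starts 42 bp apart. RefSeq starts can differ from the starts used in the heart by several bases, and a match of letters is no evidence of binding.

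Over all promoters in the table, the TOP tract separated the classes more than the other motifs did. It was present in 34 of 82 cytosolic promoters (41.5%), in 17 of 75 mitochondrial promoters (22.7%) and in 18.6% of 21263 promoters of protein-coding genes. The Ets motif was about as common in both classes, in 32.9% of cytosolic and 34.7% of mitochondrial promoters, against 11.6% of all promoters. The YY1 motif (AAGATGGCG) was found in 7.32% and 10.7%, against 1.83% of all promoters, and the NRF1 motif (GCGC, then AT, then GCGC) in 2.44% and 4%, against 1.33%. The Sp1 motif was present in 57.3% and 52%, against 46.2%, and TATAAA in 11% and 6.67%, against 12.6%. Motifs were counted in the whole window from 250 bases before to 50 after the start, GGGCGG and a TOP tract can overlap, and the shares are descriptions with no test. Among promoters whose start lay under a peak, the Ets share was 35.1% in both classes, against 18.4% of all such promoters, and the TOP share was 41.9% and 23%, against 19.7%. There the Sp1 share was below that of all such promoters, at 62.2% and 52.7% against 66.6%, and the TATAAA share above it, at 8.11% and 6.76% against 6.32%, so both turned direction.

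Mitochondrial ribosomal protein genes often had a divergent neighbour. Of the 69 with a start in the table, 24 (34.8%) lay head to head with another protein-coding gene whose start was within 1 kb, as did 9 of 70 cytosolic genes (12.9%) and 8.48% of 17492 protein-coding genes. Mrps12 shared its promoter with Sars2, the mitochondrial seryl-tRNA synthetase gene, with 147 bp between the starts. Mrpl43 shared one with Twnk, the mitochondrial DNA helicase gene, at 116 bp. Mrpl47 lay opposite Ndufb5, a complex I gene, at 308 bp, and Mrpl49 lay 192 bp from Fau, which encodes a cytosolic small-subunit protein. Among cytosolic genes, Rps28 lay 10 bp from Ndufa7, another complex I gene, at the closest of their starts. At each of these 5 genes 1 peak touches both partners, and its counts cannot be split between the neighbours.

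**Figure D1:**
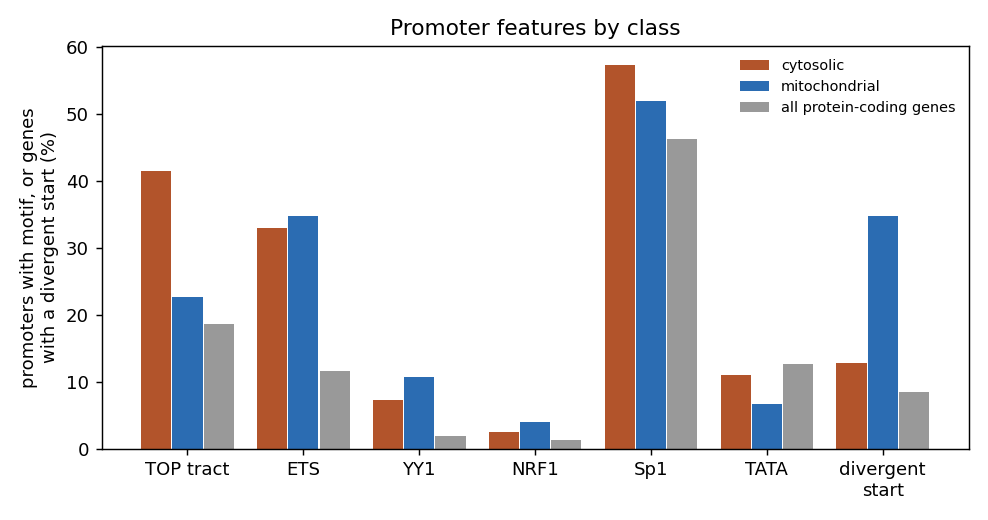
Share of promoters with each motif, and share of genes with a divergent start within 1 kb, in percent, for cytosolic, mitochondrial and all protein-coding genes. The TOP tract is most frequent in the cytosolic class at 41.5%, the Ets motif reaches 32.9% and 34.7% in the cytosolic and mitochondrial classes, and divergent starts are most frequent in the mitochondrial class at 34.8%.

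Nearly all members had an accessible start. The start of the gene lay under a peak for 63 of 70 cytosolic genes (90.0%) and for 68 of 69 mitochondrial genes (98.6%), compared with 56.8% of protein-coding genes. The 7 cytosolic exceptions were the paralogs and retrogenes Rpl10l, Rpl31-ps12, Rpl32l, Rpl37rt, Rpl39l, Rps23rg1 and Rps27rt, and the mitochondrial exception was Mrpl20. The strongest peak of each gene ranked at a median percentile of 94.4 among all peaks for cytosolic and 90.3 for mitochondrial genes. All peaks include many weak ones away from genes, and the strongest peak of all 13317 genes with one had a median of 27.1 and 24.9 CPM in the mutant and 25.6 and 25.4 CPM in the wild type. Read counts at retrogenes and at near-identical copies are uncertain, since the handling of reads that map to several places is not given in the sources used here.

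Cytosolic genes had the higher levels in each library. The median CPM (counts scaled to library size) of the strongest peak per cytosolic gene was 40.5 and 37.7 in mutant replicates 1 and 2 and 36.5 and 35.8 in wild-type replicates 1 and 2. For mitochondrial genes it was 29.1 and 26.4 CPM in the mutant and 26.8 and 27.9 CPM in the wild type, near the median of all genes with a peak. On the log2 scale the cytosolic median exceeded the mitochondrial one by 0.48 and 0.51 in the mutant libraries and by 0.45 and 0.36 in the wild-type libraries. Cytosolic peaks were also wider, with a median of 1256.5 bp against 1131 bp. Per kb of peak width the gap on the log2 scale was smaller, at 0.23 and 0.19 in the mutant and 0.10 and 0.10 in the wild type. Per kb over the strongest peak at an annotated start, an alternative chosen after seeing the data, the gap was 0.17 and 0.19 in the mutant and 0.14 and 0.24 in the wild type, with the genotypes overlapping.

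**Figure D2:**
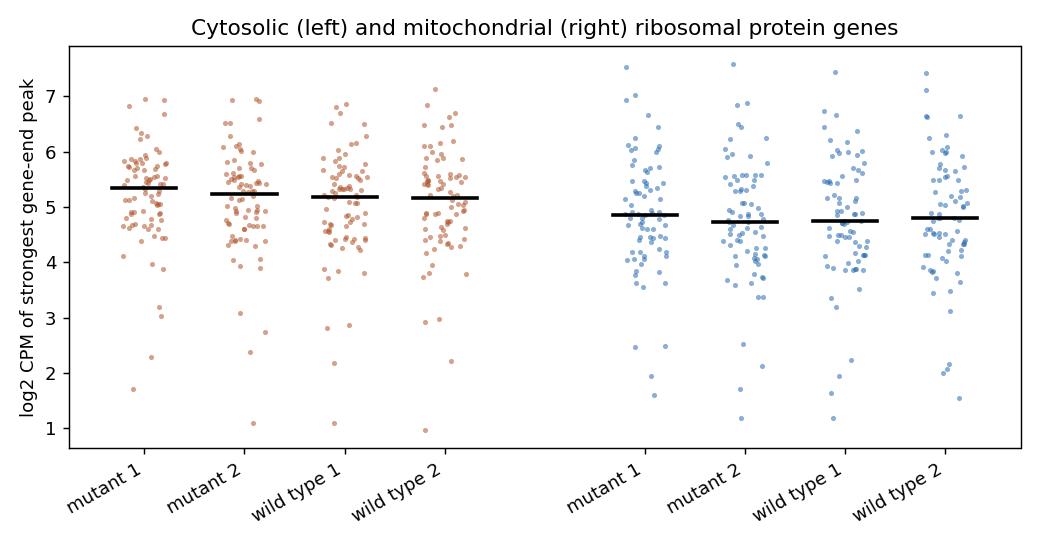
Log2 CPM of the strongest gene-end peak of each gene, by library, for 82 cytosolic genes at the left and 77 mitochondrial genes at the right. Points are genes and bars are medians, and in each of the 4 libraries the cytosolic median lies above the mitochondrial one, by between 0.36 and 0.51.

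The range within a class was much wider than the gap between classes. The strongest cytosolic peaks lay at Rps19 (chromosome 7, 24883821 to 24885328), a small-subunit gene mutated in human Diamond-Blackfan anaemia, at Rpl23a and at Rps19bp1. The Rps19 peak had 124 and 124 CPM in the mutant libraries and 117 and 141 CPM in the wild-type libraries, so the genotypes overlapped. Per kb of width it held 83.8 CPM, against 24.97 CPM for the Rpl23a peak and 19.1 CPM for the Rps19bp1 peak. The Rpl23a peak lay 67 bp from an end of its gene and also within 1 kb of an end of Nek8 and Tlcd1. The Rps19bp1 peak lay outside its gene, 716 bp from the gene end and 4408 bp from the annotated start. It was also within 1 kb of an end of Atf4 and Mief1. Rps19bp1 is caught by its symbol and encodes a protein that binds RPS19, not a ribosomal subunit.

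The strongest mitochondrial peaks were broad and shared with other genes, at Mrps18b (6685 bp), Mrpl34 (3264 bp) and Mrps34 (6200 bp). The Mrps18b peak (chromosome 17, 35915437 to 35922122) had 185 and 192 CPM in the mutant and 174 and 172 CPM in the wild type, with 27.05 CPM per kb. It also covers the start of the divergent gene Ppp1r10, 756 bp from the start of Mrps18b. The Mrpl34 peak had 123 and 115 CPM in the mutant and 106 and 139 CPM in the wild type. The weakest strongest peaks were at Mrpl4, Mrpl22 and Mrps2, with means of 2.84, 4.16 and 4.36 CPM, and at Rpl34-ps1, Rpl22 and Rps2, with means of 2.39, 4.82 and 7.43 CPM. For Mrpl22, Mrps2, Rpl22 and Rps2 this followed from the rule, because the annotated start under their stronger peak lay more than 1 kb inside the outermost gene end; Rpl22 also has an outer annotated start, under no peak. The peaks over those starts averaged 12.6 CPM at Mrpl22, 13.1 at Mrps2, 45.2 at Rpl22 and 49.9 at Rps2.

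No peak lay within 1 kb of a gene end for 10 members. They were the 7 cytosolic paralogs and retrogenes listed above, Rpl17 and Rps27l of the cytosolic class, and Mrps23 of the mitochondrial class. The starts of Rps27l and Mrps23 lay under peaks farther inside the gene, with 42.3 and 35.8 CPM in the mutant and 41.8 and 38.5 CPM in the wild type at Rps27l, and with 41.5 and 35.5 CPM in the mutant and 40.6 and 36.7 CPM in the wild type at Mrps23. The peak nearest to an end of Rpl17 was 1334 bp away, and 1 peak overlapped the gene.

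Between the genotypes, few peaks at the ribosomal protein genes were called, in a comparison that can miss changes by a fold of 2 or less. Of the 124 cytosolic peaks, 2 rose and none fell (edgeR quasi-likelihood test, Benjamini-Hochberg adjusted p under 0.05 over all peaks), and of the 97 mitochondrial peaks none rose or fell. DESeq2 likewise called 2 higher cytosolic and no mitochondrial peaks, beside 1.55% of all peaks higher and 1.15% lower. At an unadjusted p under 0.05, 11 cytosolic peaks (8.87%) were higher and none lower, and 4 mitochondrial peaks (4.12%) were higher and 6 (6.19%) lower. At the same p, 8.18% of gene-end peaks were higher and 2.89% lower, so the cytosolic share of higher peaks is near that background. Over all 87948 peaks 5.5% were called, 3.05% higher and 2.45% lower, and over the 16031 gene-end peaks 2.03% were called, 1.64% higher and 0.393% lower. The 2 of 124 is near the share of gene-end peaks called higher. Calls over all peaks depended on the libraries, with 4.78% higher and 3.11% lower without mutant replicate 1, 4.9% and 4.7% without mutant replicate 2, 1.17% and 1% without wild-type replicate 1, and 0.73% and 0.414% without wild-type replicate 2. Under cyclic loess offsets the shares were 3.75% higher and 2.47% lower, and 3 cytosolic peaks and 1 mitochondrial peak, within Mrps18b, were called higher. In tissue, fewer cells with an open site and less opening per cell cannot be told apart.

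The first of the higher peaks lay within Rpl3, which encodes a large-subunit protein near the peptidyl transferase centre. This weak peak (chromosome 15, 80078157 to 80078751) begins 376 bp inside the lower-coordinate end of the gene and overlaps Snord83b, a snoRNA gene hosted by Rpl3. It had 7.18 and 7.32 CPM in the mutant libraries and 3.96 and 2.27 CPM in the wild-type libraries, so the genotypes did not overlap. The mutant exceeded the wild type by 1.22 on the log2 scale (SE 0.30, adjusted p = 0.0237 by edgeR). Leaving out wild-type replicate 2 gave 0.87, and the call was lost (adjusted p = 0.268 by edgeR). The peak at the other end of Rpl3 (80082606 to 80083964), the strongest of its 4 peaks, had 44.8 and 47.3 CPM in the mutant and 36.5 and 42.5 CPM in the wild type, a log2 fold change of 0.22 (SE 0.15). Another Rpl3 peak, outside the lower-coordinate end, had 0.33 (SE 0.15, adjusted p = 0.206 by edgeR).

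The other higher peak lay 768 bp before the start of Rps15, a small-subunit gene, and overlapped no annotated gene (chromosome 10, 80291491 to 80291663). It had 61.4 and 46.5 CPM in the mutant libraries and 37.3 and 32.9 CPM in the wild-type libraries, again without overlap. The log2 fold change was 0.62 (SE 0.16, adjusted p = 0.0261 by edgeR). It no longer passed when mutant replicate 1 (adjusted p = 0.0794 by edgeR), wild-type replicate 1 (0.0985) or wild-type replicate 2 (0.284) was left out, at log2 fold changes of 0.41, 0.72 and 0.54. The peak was 172 bp wide and held 259 CPM per kb, rank 24 of all 87948 peaks. The peak over the Rps15 start itself had 29.8 and 22.2 CPM in the mutant and 19.4 and 24.0 CPM in the wild type, with overlapping genotypes and a log2 fold change of 0.26 (SE 0.19).

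**Figure D3:**
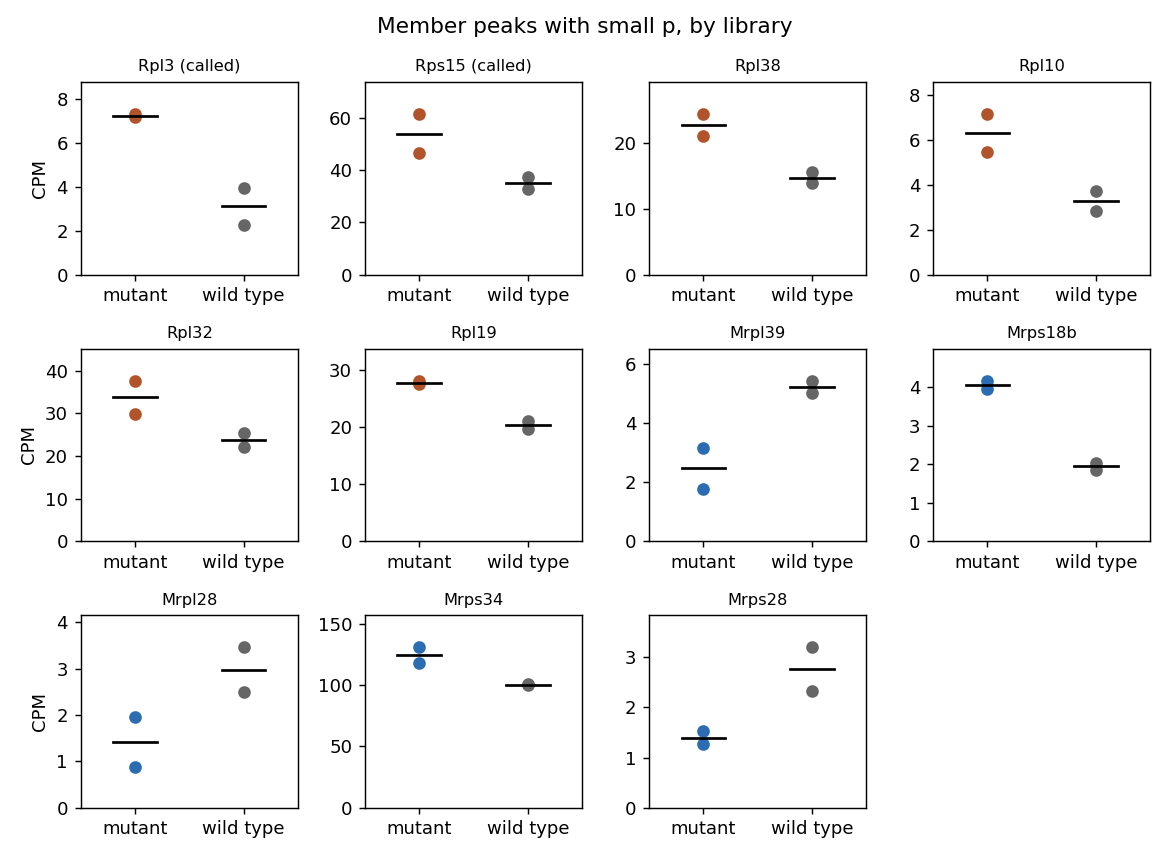
CPM of 6 cytosolic and 5 mitochondrial peaks with small p in their class, by library, with bars at the mean of each genotype and each vertical axis starting at 0. The peaks at Rpl3 and Rps15 passed the threshold and the others did not. In all of them the mutant and wild-type points do not overlap, which follows in part from the choice by p.

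Of the cytosolic peaks that did not pass, that with the smallest p covers the start of Rpl38. It had 24.3 and 20.9 CPM in the mutant and 13.9 and 15.5 CPM in the wild type, a log2 fold change of 0.62 (SE 0.18, adjusted p = 0.0523 by edgeR). Further peaks with small p were a weak peak within Rpl10 on the X chromosome (log2 fold change 0.94, SE 0.30, adjusted p = 0.067 by edgeR), the peak at the higher-coordinate end of Rpl32 (0.51, SE 0.17, 0.0783) and a peak at Rpl19 that also touches the calcium channel gene Cacnb1 (0.45, SE 0.17, 0.115). All 4 were higher in both mutant libraries than in both wild-type libraries. Leaving out mutant replicate 2 gave log2 fold changes of 0.72 at Rpl38 and 0.67 at Rpl32, against 0.51 and 0.34 without mutant replicate 1. The Rpl10 peak had 0.74 without mutant replicate 2 and 1.12 without mutant replicate 1. The X chromosome held 1.33% and 1.41% of counts in the mutant and 1.27% and 1.29% in the wild type. Raw counts on the Y chromosome were 3834 and 2260 in the mutant and 2321 and 1434 in the wild type. The part of these differences in the Rpl10 value was not tested.

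Of the mitochondrial peaks, the smallest p belonged to a weak peak 711 bp beyond the end of Mrpl39, which lies away from its start. It had 3.16 and 1.77 CPM in the mutant and 5.43 and 5.01 CPM in the wild type, a log2 fold change of -1.08 (SE 0.33, adjusted p = 0.0615 by edgeR; 0.00655 without mutant replicate 1). A weak peak 608 bp inside the end of Mrps18b that lies away from its start, also near Atat1, had 3.95 and 4.16 CPM in the mutant and 2.04 and 1.86 CPM in the wild type (log2 fold change 1.06, SE 0.34, adjusted p = 0.0724 by edgeR). Weak peaks at Mrpl28 and Mrps28 had log2 fold changes of -1.07 and -0.99 (adjusted p = 0.137 and 0.143 by edgeR), and the broad peak at Mrps34 had 0.31 (0.14). The Mrpl28 peak passed without mutant replicate 1 (0.0171) and the Mrps34 peak without mutant replicate 2 (0.0268). These values span both directions.

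The stalk proteins and other genes chosen by role had levels that overlapped between the genotypes in most cases. Rplp0, Rplp1 and Rplp2 encode the acidic stalk that recruits translation factors. The Rplp0 peak had 34.9 and 43.2 CPM in the mutant and 41.9 and 33.4 CPM in the wild type, and the log2 fold changes at Rplp0, Rplp1 and Rplp2 were 0.05, 0.01 and -0.07 (SE 0.16, 0.15 and 0.14). Rpsa, a small-subunit gene whose protein is also known as the laminin receptor, had 28.0 and 25.4 CPM in the mutant and 29.0 and 25.96 CPM in the wild type. Rpl5 and Rpl11, whose proteins bind MDM2 when ribosome assembly fails, had log2 fold changes of 0.18 (SE 0.18) and 0.12 (SE 0.16). Rps6, the target of the S6 kinases, had 0.11 (SE 0.14), and Rps27 had 0.06 (SE 0.15).

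Rpl3l, the paralog of Rpl3 that is restricted to striated muscle, was accessible at both of its annotated starts, whose sequences are given above and hold no TOP tract by the definition used. Its outer start peak (chromosome 17, 24727458 to 24728762) had 23.2 and 17.6 CPM in the mutant and 21.0 and 20.7 CPM in the wild type, so the genotypes overlapped (log2 fold change -0.03, SE 0.18). Its inner start peak (24732214 to 24734185), outside the 1 kb rule, had 34.6 and 25.7 CPM in the mutant and 35.0 and 34.9 CPM in the wild type. That gave a log2 fold change of -0.21 (SE 0.17, adjusted p = 0.489 by edgeR). The strongest gene-end peak of Rpl3l, shared with Msrb1, had 55.3 and 55.4 CPM in the mutant and 57.0 and 58.4 CPM in the wild type (log2 fold change -0.06, SE 0.13). Per kb of width the outer start peak held 15.8 CPM, and the strongest Rpl3 peak 31.5 CPM. The paralog Rpl22l1 had a log2 fold change of -0.01 (SE 0.15), and the peak over the start of Rpl22 had -0.14 (SE 0.15).

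Among the mitochondrial genes chosen by role, Mrpl12 encodes a protein that sits in the stalk region and also binds the mitochondrial RNA polymerase. Its strongest peak, shared with Slc25a10, lay 4418 bp from the annotated start and 301 bp from the other gene end. That peak had 76.4 and 75.7 CPM in the mutant and 73.7 and 63.7 CPM in the wild type (log2 fold change 0.15, SE 0.13). The strongest peak of Mrpl58, a ribosome-rescue peptidyl-tRNA hydrolase, covered the gene end away from its start, 8049 bp from that start. It had 64.0 and 66.3 CPM in the mutant and 63.3 and 68.0 CPM in the wild type. Mrps12, which carries the decoding-centre protein, had 40.5 and 47.2 CPM in the mutant and 44.9 and 47.2 CPM in the wild type. The genotypes overlapped at Mrpl58 and Mrps12. The paralogs Mrps18a and Mrps18c had log2 fold changes of -0.10 (SE 0.20) and -0.03 (SE 0.19), and the strongest peak of Mrps18b had 0.12 (SE 0.11). The shared promoter of Mrpl46 and Mrps11 (chromosome 7, 78782743 to 78783544) had 21.96 and 17.4 CPM in the mutant and 17.6 and 17.5 CPM in the wild type, with 0.16 (SE 0.19).

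As sets, the classes differed in where their fold changes lay. The median log2 fold change was 0.11 over the 124 cytosolic peaks and 0.01 over the 97 mitochondrial peaks, beside 0.04 over all gene-end peaks and -0.00 over all peaks. It was positive for 94 cytosolic peaks (75.8%) and 52 mitochondrial peaks (53.6%), beside 56.4% of gene-end peaks. Both mutant libraries lay above both wild-type libraries at 47 cytosolic peaks (37.9%) and below at 8 (6.45%). At mitochondrial peaks the counts were 15 (15.5%) above and 18 (18.6%) below, and over all gene-end peaks the shares were 25.1% above and 16.6% below, and over all peaks 25.8% above and 25.7% below. By subunit the medians were 0.12 for the cytosolic large, 0.10 for the cytosolic small, 0.02 for the mitochondrial large and -0.01 for the mitochondrial small subunit. These are descriptions of peaks that share 4 libraries, with no test.

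The size of the cytosolic shift depended on the libraries used, and mutant replicate 1 had the highest cytosolic median. The median centred log2 CPM of cytosolic peaks was 0.105 in mutant replicate 1 and -0.002 in mutant replicate 2, and -0.083 and -0.039 in wild-type replicates 1 and 2. For mitochondrial peaks it was 0.051 and -0.042 in the mutant and 0.015 and 0.011 in the wild type, and for all gene-end peaks 0.065 and -0.022 in the mutant and -0.005 and -0.029 in the wild type. With mutant replicate 1 left out, medians of the fold change on the log2 scale were 0.04 for cytosolic, -0.06 for mitochondrial and -0.01 for all gene-end peaks. With mutant replicate 2 left out they were 0.17, 0.04 and 0.08. Without wild-type replicate 1 they were 0.11, 0.01 and 0.06, and without wild-type replicate 2 they were 0.15, 0.01 and 0.03. The difference between the cytosolic and mitochondrial medians, 0.10, lay between 0.10 and 0.14 in the 11 other fits to single peaks. Among these, the fit without a filter repeated the main fit, since the filter removed no peak. With scaling by total counts the median of all peaks was -0.04, and the cytosolic and mitochondrial medians were 0.07 and -0.03, so the sign of the mitochondrial median turned. The summed CPM of the cardiomyocyte marker peaks was 984 and 863 in the mutant and 848 and 807 in the wild type, highest in the library with the highest cytosolic median, and that of the mural markers (4 of 4 with a peak) was 56.5 and 66.3 in the mutant and 55.4 and 53.4 in the wild type. The single Schwann marker peak (1 of 2 genes) had 3.95 and 3.60 CPM in the mutant and 2.32 and 2.84 CPM in the wild type, and the single neuron marker peak (1 of 2) 4.08 and 2.97 CPM in the mutant and 1.70 and 2.58 CPM in the wild type. The sum of the fibroblast markers (4 of 4) was 63.1 and 75.3 in the mutant and 63.0 and 68.7 in the wild type, and that of the endothelial markers (4 of 5 with a peak) was 96.0 and 94.3 in the mutant and 130 and 94.96 in the wild type. Their part in the shift was not tested.

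**Figure D4:**
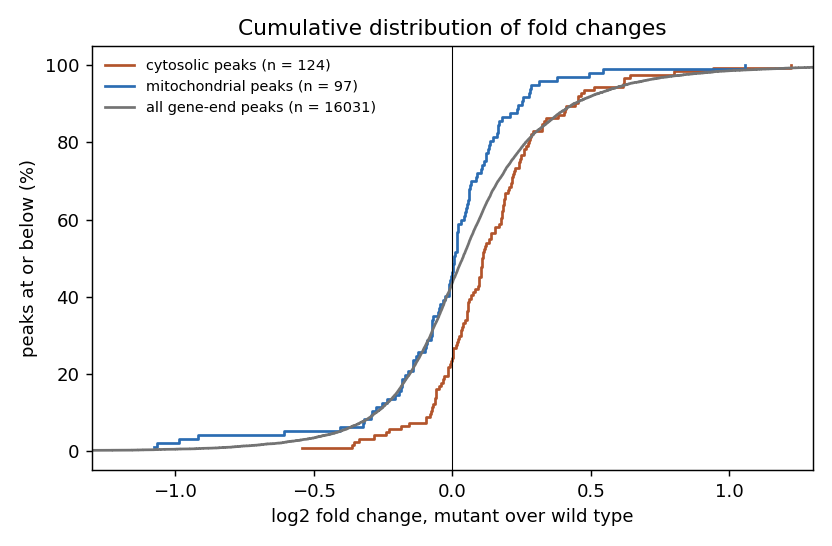
Cumulative share of peaks, in percent, by log2 fold change of mutant over wild type, for 124 cytosolic, 97 mitochondrial and 16031 gene-end peaks. The cytosolic curve lies to the right of both others around its median of 0.11, while the mitochondrial median is 0.01.

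Starts were annotated for 70 of the 91 cytosolic and 69 of the 78 mitochondrial genes, and only peaks of such genes were divided by start. Over these starts the cytosolic shift was smaller, but the peaks come from fewer genes than the 124 peaks above. The part of this difference in genes was not tested. Over the 58 cytosolic peaks that cover the gene's own start the median log2 fold change was 0.07, against 0.01 over the 64 such mitochondrial peaks and 0.02 over the 8309 of all protein-coding genes. The median centred log2 CPM of those cytosolic start peaks was 0.092 and -0.025 in the mutant and -0.068 and 0.005 in the wild type, so the genotypes overlapped. Over peaks near a gene end but over no annotated start the median log2 fold change was 0.14 for 23 cytosolic and -0.16 for 13 mitochondrial peaks. It was 0.10 for 4581 peaks of all genes with an annotated start. These peaks were weak, with medians of 4.82, 5.02 and 6.07 CPM for the cytosolic, the mitochondrial and all such peaks. Among cytosolic genes whose strongest peak covers the start, the 25 with a TOP tract had a median of 40.6 CPM (29.8 CPM per kb) and a median log2 fold change of 0.07, and the 27 without one had 29.8 CPM (26.6 per kb) and 0.10. Mitochondrial genes with a TOP tract (14) likewise had a higher median, 32.5 CPM (27.5 per kb), than those without (48), 25.2 CPM (23.6 per kb). Their median log2 fold changes were 0.02 and 0.01. Mitochondrial genes with an Ets motif (22) had a median of 34.1 CPM (29.3 per kb) and a median log2 fold change of -0.04, and those without (40) had 26.01 CPM (23.2 per kb) and 0.05. Cytosolic genes with an Ets motif (21) had 36.5 CPM (28.0 per kb) and 0.07, and those without (31) had 34.5 CPM (26.1 per kb) and 0.10. When the counts of all peaks of a gene were summed, none of the 82 cytosolic or 77 mitochondrial genes passed the threshold (edgeR), beside 0.0601% of 13317 genes higher and 0.0526% lower. At an unadjusted p under 0.05, 7 cytosolic genes (8.54%) were higher and none lower, and 3 mitochondrial genes (3.9%) were higher and 6 (7.79%) lower, beside 6.42% of all genes with a peak higher and 4.16% lower.

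**Figure D5:**
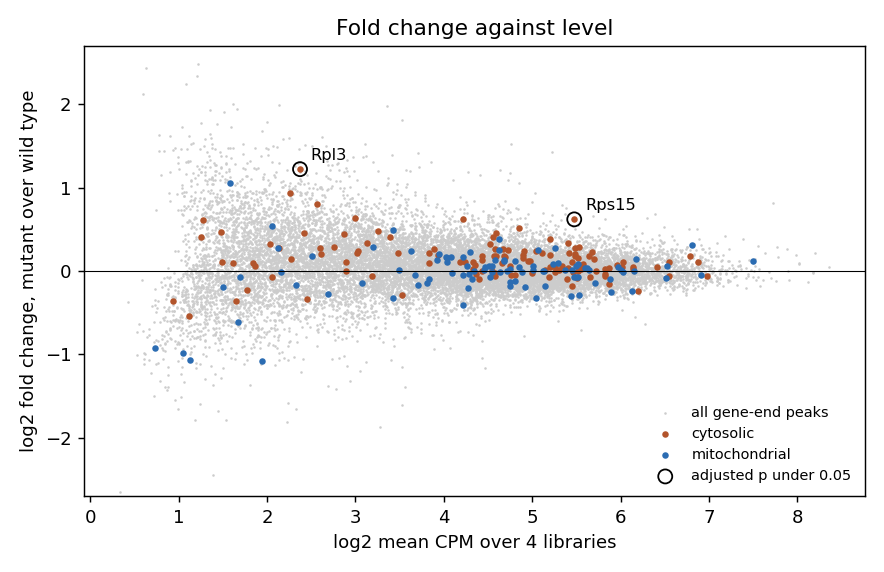
Log2 fold change of mutant over wild type against log2 mean CPM over the 4 libraries, for all gene-end peaks in grey, cytosolic peaks and mitochondrial peaks. The called peaks at Rpl3 and Rps15 are ringed, at log2 fold changes of 1.22 and 0.62, and the largest fold changes of either class occur among weak peaks.

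Other genes of ribosome production and translation gave 2 calls, both higher, beside 2.03% of all gene-end peaks called. In the list of 32 genes of ribosome biogenesis and RNA polymerase I, none of 46 peaks at 30 genes was called, and the median log2 fold change was 0.10. None of 49 peaks at 34 genes of cytosolic translation factors was called (median 0.03), nor any of 43 peaks at 36 genes of mitochondrial translation and ribosome assembly (median -0.01). Of 12 peaks at 8 ribosomal protein genes that the symbol rule missed, 1 rose (median 0.10). It lies 480 bp from the start of Chchd1, which encodes a protein of the mitochondrial small subunit (chromosome 14, 20701856 to 20702547). It had 15.8 and 9.34 CPM in the mutant and 4.98 and 4.64 CPM in the wild type, without overlap (log2 fold change 1.38, SE 0.27, adjusted p = 0.00601 by edgeR).

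Among 16 regulators of ribosomal genes, 1 of 20 peaks at 14 genes rose (median 0.17). It covers the lower-coordinate end of Myc, the transcription factor that drives ribosome biogenesis (chromosome 15, 61984166 to 61988413). The peak had 115 and 97.9 CPM in the mutant and 78.6 and 68.7 CPM in the wild type, without overlap. The log2 fold change was 0.53 (SE 0.13, adjusted p = 0.0243 by edgeR), and with wild-type replicate 1 or 2 left out the peak no longer passed (adjusted p = 0.0943 and 0.333 by edgeR), at log2 fold changes of 0.64 and 0.44. No peak was called at Gabpa, Nrf1, Yy1, Sp1, Mtor or Rps6kb1.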

How the data were processed

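For the 4 ATAC-seq libraries, whole-number read counts in a common set of peaks were deposited by the authors without normalization, per the file headers. FastQC, Bowtie2 and the build mm10 are listed, with no versions or roles, per the submitters' processing notes. Peak caller, read filters, duplicate handling and any transposase shift: not given in the sources used here. Peaks were tied to protein-coding genes of RefSeq GRCm38.p6 in Python 3.11.15, with promoter sequences for 139 of the 169 members; peak coordinates are printed as deposited, and whether their starts count from zero is not stated.

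Counts were tested with edgeR 4.0.16 in R 4.3.3 (TMM, filterByExpr, genotype as the only term), with CPM scaled by TMM-adjusted library sizes. DESeq2 1.42.0, other scalings and filters, a replicate block and each library left out were alternatives. Centred log2 CPM used 0.1 CPM as prior. Within a genotype the 2 libraries were distinct (chi-square divided by degrees of freedom 5.76 in the mutant and 4.09 in the wild type). On simulated counts for this comparison over 87948 peaks the test recovered 7.5%, 43.3% and 93.9% of peaks changed by folds of 1.5, 2 and 3, with 2 false calls. The changed peaks (67, 67 and 66) were drawn from all peaks, so these shares do not measure recovery at the member peaks.

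Named peaks were those called, the 5 with the smallest p per class among the rest, the 3 strongest and 3 weakest genes per class, members without a peak and genes chosen by role; 1 item is not reported here by name. Further promoters and the divergent pairs were picked after their values were seen. Members and lists were chosen with earlier results of these data known.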

Additional observations from a re-analysis of the deposited data

How the results depend on the processing

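Counts of called peaks depended on the fit more than on the scaling. Over all peaks, 2683 higher and 2156 lower became 1365 and 1008 with DESeq2, and lay between 642 and 4307 higher and between 364 and 4132 lower when 1 library was left out; a fit with a lone library takes its spread from the other genotype's pair. The 2 higher cytosolic peaks became 0 to 7 without 1 library (0 without wild-type replicate 2, 7 without mutant replicate 2), 0 within 200 bp of a gene end, 1 within 1 kb of an annotated start and 0 with counts summed per gene. Mitochondrial calls stayed between 0 and 1 higher and 0 and 2 lower without 1 library, with 1 higher under cyclic loess offsets. The median log2 fold change without 1 library lay between 0.042 and 0.167 for cytosolic and between -0.057 and 0.040 for mitochondrial peaks. The gap in level, 0.45 on the log2 scale as a mean over libraries, was 0.53 for summed peaks, 0.15 per kb of width and, chosen after seeing the data, 0.32 over annotated starts and 0.18 per kb over them. The cause of these changes was not tested. Of 143 alternative values of 13 named peaks, 124 kept direction and side of the threshold, 13 newly passed it and 6 no longer did, and none changed sign. Of 110 alternative list counts, 14 differed by over 1.5 times. The filter removed none of the 87948 peaks, so among these alternatives the fit without a filter repeated the main fit.

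Replicate numbers are shared by the titles, but with 2 pairs they do not establish pairing (the replicate differences of the 2 genotypes correlated at 0.108 across peaks). The replicate block raised the calls to 5230 higher and 4494 lower over all peaks, 6 higher cytosolic peaks, and 1 higher and 1 lower mitochondrial peak. With it the peaks at Rpl38, Rpl10 and Rpl32 (adjusted p = 0.0158, 0.0208 and 0.0254 by edgeR), Mrps18b (0.0339) and Mrpl39 (0.011) passed the threshold. In this comparison of 2 libraries per genotype, a peak changed by a fold of 2 or less can be missed.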
